A study of Drosophila melanogaster with 18 samples.

Results

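The 8 genes described here belong to 2 arms of larval sugar handling in Drosophila melanogaster: the intracellular sugar sensor with its targets (Mondo, bigmax, sug, cbt, tobi and daw) and the adipokinetic hormone with its receptor (Akh and AkhR). They were chosen by their FlyBase symbols, and all 8 were found, once each, among the 17562 genes of the count table. RNA from whole third-instar larvae was sequenced in 18 libraries, 3 for each of 6 groups, as strand-specific total RNA depleted of rRNA. The study's own read statistics call the sequencing mRNA-seq instead, so the way the RNA was selected is uncertain. The study asked how the loss of each of the 5 U1 genes, which encode the snRNA that recognises the 5′ splice site, alters gene expression.

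The WT was the w1118 isogenic strain BDSC 5905. The 5 other groups were strains homozygous for a CRISPR/Cas9 deletion of 1 U1 gene each, namely 21D, 82Eb, 95Ca, 95Cb or 95Cc, in the same BDSC 5905 background after repeated crosses to the WT. Each deletion took away the promoter, the transcribed part and the terminator of 1 copy and left the 4 other copies, and each group was represented by 1 line. How many larvae made up a library, and their age and sex, are not given in the sources used here. No read was counted for the deleted gene in the 21D, 82Eb, 95Cb and 95Cc strains (0 counts in each of their 12 libraries), while 95Ca had 5 counts in the library labelled 95Ca replicate 2 against 0 in its 2 other libraries. That library also had 24 counts of the 95Cc gene, where no other library had more than 8. A mislabelled library and reads shared between U1 copies cannot be told apart here. The 5 U1 genes had only 4 to 11 counts each in the 3 WT libraries together, so these counts check the labels weakly. Library totals lay between 11919121 and 21776613 counts. On the first principal component of the 500 most variable genes, which held 52.1% of the variance, replicate 2 of the WT, 21D and 82Eb and replicate 1 of 95Ca, 95Cb and 95Cc stood apart from the other libraries of their groups.

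Mondo and Bigmax (the fly Mlx) form a dimer of basic helix-loop-helix zipper proteins that responds to sugar phosphates and binds carbohydrate response elements; it drives a second tier of transcription factors, Sugarbabe and Cabut, together with metabolic enzymes and the secreted ligand Dawdle. The adipokinetic hormone is a peptide of the corpora cardiaca, endocrine cells of the ring gland, and acts through a G protein-coupled receptor on the fat body to mobilise glycogen, trehalose and lipid, much as glucagon does in mammals. The α-glucosidase gene tobi, named as a target of brain insulin, is known to respond to insulin-like signalling and to the sugar and protein of the diet.

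The genes lie on 4 chromosome arms in dm6, the build of the count table. Mondo (FBgn0032940; 2L, 21286078 to 21310050, minus strand) has 12 merged exons, cbt (FBgn0043364; 2L, 476446 to 479688, minus) has 1, daw (FBgn0031461; 2L, 2805261 to 2812376, plus) has 6 and AkhR (FBgn0025595; 2L, 6711286 to 6716186, minus) has 6. The others are sug (FBgn0033782; 2R, 12924567 to 12930644, plus; 3 exons), Akh (FBgn0004552; 3L, 4141467 to 4142070, plus; 2 exons), tobi (FBgn0261575; 3R, 25344761 to 25346921, minus; 2 exons) and bigmax (FBgn0039509; 3R, 27287366 to 27288526, minus; 3 exons). All 8 are protein-coding, and their counts were made over exons. The U1 gene nearest to any of them was 21D, 422 kb from cbt, so that none of the 8 lay next to a deleted copy. On 3R, tobi lay 1485 kb and bigmax 3428 kb from 95Ca, their nearest U1 gene. Whether the strains differed from the WT in sequence linked to a deletion was not tested. Exons of 3 genes overlapped those of a neighbour: sug shared 98 bases with CG13319 on the same strand, bigmax 83 bases with CG3368 and tobi 78 bases with rha, the latter pair on opposite strands. Reads in those bases may have been discarded or assigned to the neighbour, and the values of these 3 genes carry this uncertainty.

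The main result was a decrease of tobi in the strains lacking a U1 gene, deepest in 95Ca and 95Cb, while the sensor genes Mondo and bigmax and the target cbt were not called in any strain. A gene was called a differentially expressed gene (DEG) when its absolute log2 fold change against the WT exceeded 1 and its adjusted p, from edgeR's quasi-likelihood test with Benjamini-Hochberg adjustment over all genes tested, was below 0.05. All 8 genes passed the filter on low counts in every comparison. In the 21D strain 0 of the 8 were DEGs, where 1.01% of the 12443 genes tested were. Replicates spread most in that comparison, with a common biological coefficient of variation of 0.438 against 0.280 to 0.349 in the 4 others, and the 0 in 21D does not show that the 8 genes were unaltered. In 82Eb 0 of the 8 were DEGs against a background of 4.53% of 12423 genes. In 95Ca the 1 DEG was tobi (background 2.75% of 12463 genes), in 95Cb the 2 DEGs were tobi and AkhR (7.39% of 12500) and in 95Cc the 1 DEG was tobi (4.8% of 12457). All of these calls were decreases. The same shares over all genes are the background for every count of DEGs in a gene list below. The 5 comparisons share the same 3 WT libraries, and their calls are therefore not independent of each other.

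**Figure D1:**
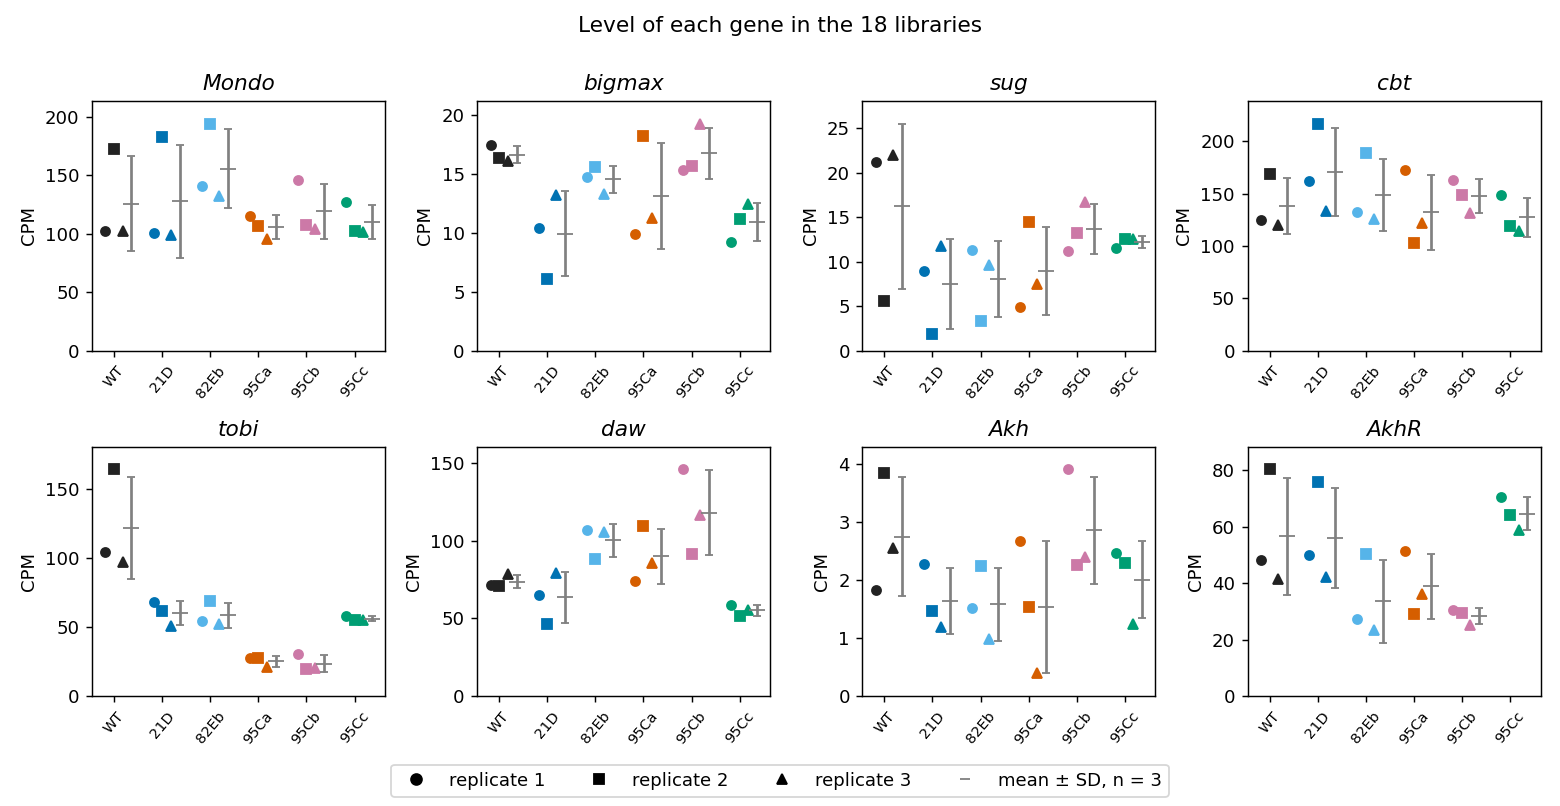
Level of each of the 8 genes in CPM (counts scaled to the library total; linear axes from 0) in the 18 libraries, with circles, squares and triangles for replicates 1, 2 and 3 and grey bars for the mean ± SD of each group (n = 3). For tobi, the 3 WT libraries lie between 97.3 and 164 CPM and the 15 deletion-strain libraries at 68.9 CPM or lower.

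Levels of different genes can be compared only after division by exon length, and on that scale tobi led the WT larvae. Its mean level in the WT was 58.0 ± 17.5 RPKM (the CPM divided by the exonic length in kilobases; SD, n = 3, as for every mean below), ahead of cbt at 42.6 ± 8.29 RPKM. Mondo followed at 24.4 ± 7.78 RPKM and daw at 22.6 ± 1.26 RPKM, then AkhR at 17.8 ± 6.52 RPKM and bigmax at 17.4 ± 0.750 RPKM. The order ended with sug at 10.3 ± 5.89 RPKM and Akh at 5.14 ± 1.91 RPKM. Between tobi and cbt, between Mondo and daw, between daw and AkhR, between AkhR and bigmax and between sug and Akh, the ranges of the WT libraries overlapped, and these neighbours in the order did not differ beyond their spread. The ranges of cbt and Mondo and of bigmax and sug did not overlap. In the 95Cb strain cbt led with 45.6 ± 4.91 RPKM and tobi, at 11.3 ± 2.85 RPKM, stood after daw, Mondo and bigmax. In 95Ca it stood after AkhR as well, at 12.1 ± 1.87 RPKM, although the means of AkhR (12.2 ± 3.57 RPKM) and tobi did not differ beyond their spread there.

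Mondo, the sugar-responsive subunit of the dimer, had 103, 172 and 103 CPM in WT replicates 1, 2 and 3. It was measured at 101, 183 and 98.9 CPM in 21D, 141, 194 and 133 CPM in 82Eb, 116, 106 and 95.5 CPM in 95Ca, 146, 107 and 104 CPM in 95Cb, and 127, 102 and 101 CPM in 95Cc. In every group the library that stood apart on the first principal component was the highest for Mondo, and each strain overlapped the WT. Log2 fold changes ran from −0.14 ± 0.18 (SE) in 95Ca to 0.36 ± 0.16 in 82Eb, and the lowest adjusted p of the 5 tests was 0.295, in 82Eb. The 3 genes whose log2 CPM followed Mondo most closely over the 18 libraries, among 13095 others, were the serpin Spn77Ba (Spearman's rho 0.91), zye (0.87) and the Toll ligand gene spz (0.87).

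bigmax, which encodes the obligate partner of Mondo, was the steadiest of the 8 in the WT, at 17.4, 16.4 and 16.1 CPM. The 3 libraries of 21D (10.4, 6.11 and 13.2 CPM), 82Eb (14.7, 15.6 and 13.3 CPM) and 95Cc (9.23, 11.2 and 12.4 CPM) all lay below the WT. Those of 95Ca (9.89, 18.2 and 11.3 CPM) and 95Cb (15.4, 15.7 and 19.2 CPM) overlapped it. None of the differences passed the test: the log2 fold change was −0.64 ± 0.39 in 21D (adjusted p = 0.843) and −0.58 ± 0.21 in 95Cc (adjusted p = 0.170), and it lay between −0.24 and −0.05 in the 3 other strains. The genes most like bigmax over the libraries were the Rab GTPase gene RabX1 (rho 0.93), Cdc50 (0.92) and Hexo1 (0.91).

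The wider network of helix-loop-helix zipper partners, which adds the growth regulator Myc, its partner Max and the repressor Mnt to Mondo and bigmax, held 0 DEGs among 5 genes in every strain. Median log2 fold changes of the 5 genes were between −0.17 and 0.07, beside medians of −0.02 to 0.03 over all genes tested.

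sug, the Gli-similar zinc-finger factor Sugarbabe that is induced by dietary sugar, varied widely between the replicates of the WT, 21D, 82Eb and 95Ca and less in 95Cb and 95Cc. In the WT it had 21.2, 5.54 and 21.9 CPM in replicates 1, 2 and 3, in 21D 8.95, 1.91 and 11.7 CPM, and in 82Eb 11.4, 3.30 and 9.60 CPM. In 95Ca it had 4.87, 14.5 and 7.51 CPM, in 95Cb 11.2, 13.2 and 16.7 CPM, and in 95Cc 11.5, 12.6 and 12.6 CPM. The lowest library of each group was the one that stood apart on the first principal component, in contrast to Mondo and cbt, where the same libraries were the highest. The value of WT replicate 2 made every strain overlap the WT range, whereas WT replicates 1 and 3 lay above all 15 libraries of the deletion strains. This separation sets WT replicate 2 aside, and its share over all genes was not computed.

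The log2 fold change of sug was negative in all 5 strains, with −1.04 ± 0.84 for 21D, −0.99 ± 0.73 for 82Eb, −0.81 ± 0.69 for 95Ca, −0.47 ± 0.54 for 95Cc and −0.36 ± 0.55 for 95Cb, and with adjusted p from 0.546 to 0.975. Replicates of the same number deviated together in the WT, 21D and 82Eb, and a replicate block was therefore fitted for these strains. With the replicate block sug was called in 21D, at −1.13 ± 0.21 (adjusted p = 0.0364), the 1 DEG of the 8 against 3.7% of all genes. In 82Eb 0 of the 8 were called with the block against 9.08% of all genes, sug being at −0.95 ± 0.13 (adjusted p = 0.000857) and short of the fold threshold. With replicate 2 of the WT and of the strain both left out, sug was called in both strains, at −1.01 ± 0.20 in 21D (adjusted p = 0.0346) and −1.01 ± 0.12 in 82Eb (adjusted p = 0.000246), where 485 of 12467 and 1254 of 12447 genes were called. It was not called without WT replicate 2 alone (adjusted p = 0.863 in 21D and 0.260 in 82Eb). Nor was it called without replicate 2 of the strain alone (adjusted p = 0.792 in 21D and 0.601 in 82Eb). In 95Ca it was called only over replicates 1 and 3 of both groups (−1.92 ± 0.30, adjusted p = 0.0316), where 403 of 12527 genes were called. Without its outlying replicate 1 and WT replicate 2, 95Cc had −0.83 ± 0.12 (adjusted p = 0.000445), and 95Cb −0.63 ± 0.17 (adjusted p = 0.0331), neither past the fold threshold.

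Markers of the midgut moved with sug. The 7 markers, which include the trypsins alphaTry, betaTry and lambdaTry and the midgut gene mex1, summed to 8881 and 9390 CPM in WT replicates 1 and 3 and to 659 CPM in WT replicate 2. In the strains the summed level ran from 83.4 to 3485 CPM in 21D, 252 to 2928 CPM in 82Eb, 316 to 3016 CPM in 95Ca, 839 to 3344 CPM in 95Cb and 1001 to 2327 CPM in 95Cc, and its minimum in each group fell in the same library as that of sug. Of the 7 markers, 1 was a DEG in 21D and 3 in each of the 4 other strains, all lower than in the WT. Over all genes tested, 1.01% were DEGs in 21D and 2.75% to 7.39% in the 4 others. For example, Npc2f had log2 fold changes from −2.81 to −1.77 in the 4 strains where it was called. Jon65Aiv, a serine protease of this marker list, was also the gene most like sug over the 18 libraries (rho 0.93), followed by CG5767 (0.93) and a second Jonah protease, Jon25Bii (0.92). The part of the midgut markers in the level of sug was not tested. In RNA from whole larvae, fewer cells of a type and less RNA per cell cannot be told apart.

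**Figure D2:**
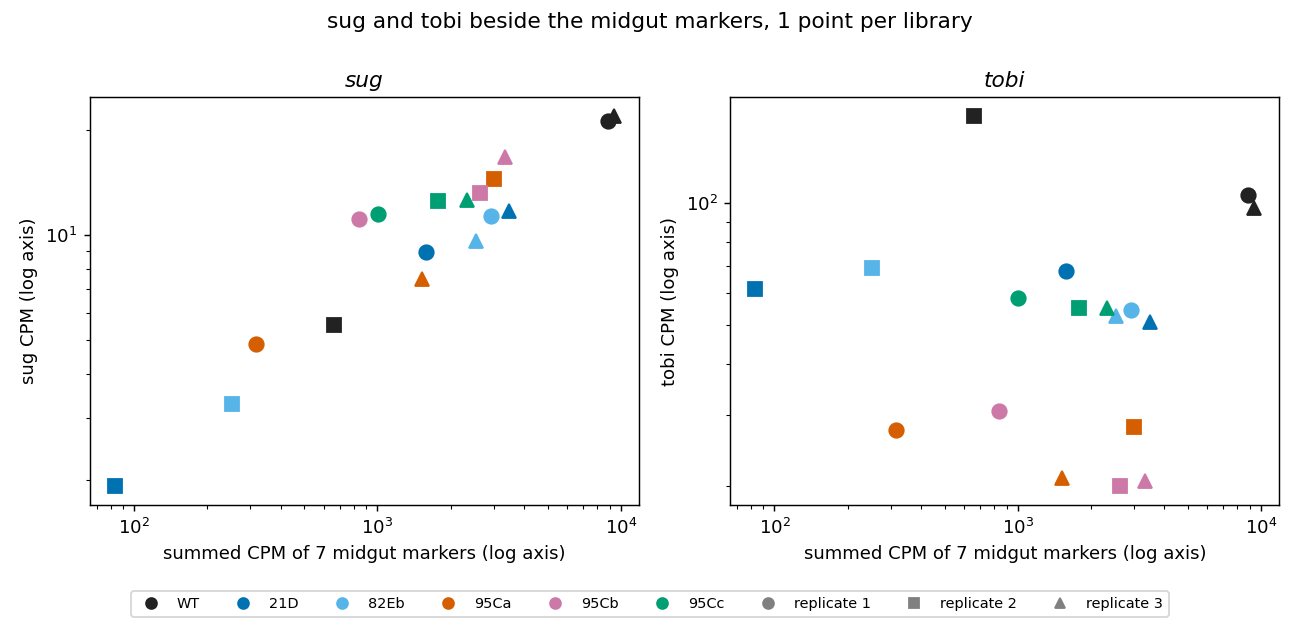
CPM of sug (left) and tobi (right) against the summed CPM of 7 midgut markers in each of the 18 libraries, on log axes, with colours for the groups and shapes for the replicates. The library with the lowest marker sum, 21D replicate 2 at 83.4 CPM, is also the lowest for sug, whereas WT replicate 2, at 659 CPM of markers, is the highest of all for tobi.

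cbt, a zinc-finger factor of the Krüppel-like family that represses metabolic genes under sugar feeding, stayed close to the WT. It had 125, 169 and 120 CPM in the WT, 162, 217 and 133 CPM in 21D, 132, 188 and 126 CPM in 82Eb, 172, 103 and 122 CPM in 95Ca, 163, 149 and 131 CPM in 95Cb, and 149, 119 and 114 CPM in 95Cc. All 5 strains overlapped the WT, and the library that stood apart was the highest in each of the 6 groups. Its log2 fold changes lay between −0.08 ± 0.12 in 95Cc and 0.37 ± 0.18 in 21D, with adjusted p of at least 0.638. The most similar genes were CG15279 (rho 0.91), the chitinase Cht10 (0.90) and fiz (0.90). Of 5 relatives of sug and cbt, namely lmd, ci, luna, dar1 and Klf15, 4 were tested and 0 were DEGs in any strain.

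**Figure D3:**
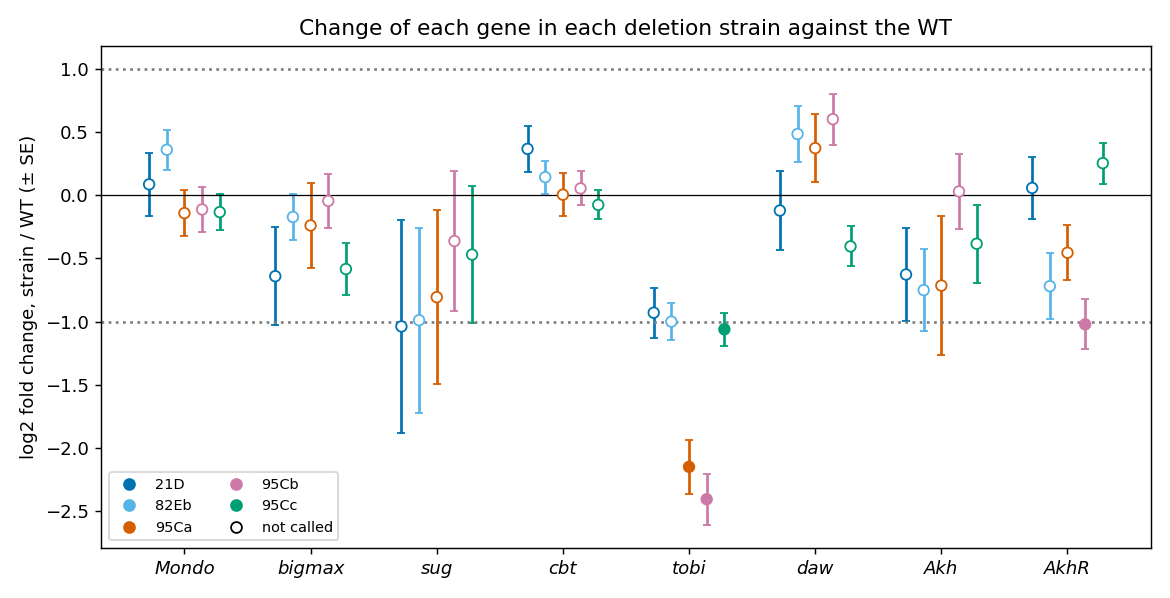
Log2 fold change of each gene in each deletion strain against the WT, with bars of ± 1 SE; filled points were called and open points were not, and dotted lines mark log2 fold changes of −1 and 1. tobi is below 0 in all 5 strains and reaches −2.40 in 95Cb, and AkhR in 95Cb, at −1.02, is the only other filled point.

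tobi, an α-glucosidase gene of the larval fat body and gut, gave the largest differences. The WT had 104, 164 and 97.3 CPM. The strains fell into 2 ranges that did not overlap. This grouping was made after the values were seen and was not tested, and its share over all genes was not computed. Levels were 68.1, 61.5 and 50.8 CPM in 21D, 54.5, 68.9 and 52.5 CPM in 82Eb, and 58.4, 55.1 and 54.9 CPM in 95Cc. They were 27.5, 28.0 and 20.9 CPM in 95Ca and 30.6, 19.9 and 20.6 CPM in 95Cb. All 15 deletion-strain libraries were thus below all 3 WT libraries, a pattern shared by 2.36% of 13096 genes. Neither 21D, 82Eb and 95Cc nor 95Ca and 95Cb could be ordered among themselves, since their ranges overlapped.

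In 95Cb the mean of tobi was 19.4% of the WT mean and the log2 fold change −2.40 ± 0.20 (5.29-fold lower, adjusted p = 0.000794). In 95Ca it was 20.9% of the WT mean, at −2.15 ± 0.21 (4.43-fold lower, adjusted p = 0.00267), and without the library labelled 95Ca replicate 2 the log2 fold change was −2.32 ± 0.22 (adjusted p = 0.00680). These 2 calls were made under each of 14 alternatives. In 95Cc the log2 fold change was −1.06 ± 0.13 (adjusted p = 0.00559). In 82Eb it was −0.9999 ± 0.15 (adjusted p = 0.0133), marginally inside the fold threshold, and tobi was therefore not called. In 21D it was −0.93 ± 0.20 (adjusted p = 0.133), and with the replicate block −0.92 ± 0.17 (adjusted p = 0.0357). Its change was called under 0 of 14 alternatives in 21D, 3 of 14 in 82Eb and 8 of 14 in 95Cc. The calls in 82Eb and 95Cc moved with single libraries. The 95Cc call was lost without WT replicate 2 (−0.95, adjusted p = 0.000503), without 95Cc replicate 2 (−1.07, adjusted p = 0.0660) and without 95Cc replicate 3 (−1.10, adjusted p = 0.0528). It was also lost with the replicate block, over replicates 1 and 3 and with the outlying libraries left out. In 82Eb tobi was called without WT replicate 3 (−1.07, adjusted p = 0.0412) and without 82Eb replicate 2 (−1.01, adjusted p = 0.0368).

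Whether tobi differed between the deletion strains was tested over their 15 libraries alone, without the WT. The F test of equal levels in the 5 strains gave an adjusted p of 0.000175 for tobi and 0.00675 for AkhR, so that 2 of the 8 genes passed, against 13.7% of the 12963 genes tested. daw gave an adjusted p of 0.0758, and the 5 other genes gave 0.237 to 0.887.

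Markers of the midgut were lower in the strains, as tobi was. All 7 had a negative log2 fold change in each of the 5 strains, and the DEGs among them are counted above with sug. Within the WT the order was the other way, since replicate 2 had the lowest midgut marker sum of its group and the highest tobi level of all libraries. The part of the midgut markers in the level of tobi was not tested. The 7 fat body markers, among them the larval serum protein genes and apolpp, summed to between 76521 and 111560 CPM in the WT, 94937 to 119704 CPM in 95Ca and 76409 to 117423 CPM in 95Cb, and 0 of the 7 were DEGs in any strain. The genes most like tobi over the libraries were CG9717 (rho 0.95), the lysozyme gene LysB (0.92) and hiro (0.92). Of these, LysB and hiro were DEGs in the same 4 strains, 82Eb, 95Ca, 95Cb and 95Cc, and CG9717 in 95Ca and 95Cb. They were picked for following tobi over these same libraries, and their calls are no separate evidence.

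Many of the other enzymes of starch and disaccharide digestion were lower in the deletion strains as well. Of the 13 α-glucosidase and amylase genes listed beside it, 9 were DEGs in 95Cb (median log2 fold change of the 13 −3.49), 8 in 95Ca (−3.88), 8 in 82Eb (−2.89), 7 in 21D (−2.59) and 7 in 95Cc (−2.29), all lower than in the WT, beside medians of −0.02 to 0.03 over all genes tested. The share of DEGs over all genes tested ran from 1.01% in 21D to 7.39% in 95Cb. Between 10 and 12 of the 13 had a negative log2 fold change in each strain. This list was put together with earlier results of these data known. Mal-A1, a maltase, had a mean of 183 ± 39.5 CPM in the WT and 6.002 ± 1.87 CPM in 82Eb, with a log2 fold change of −4.82 ± 0.36 (adjusted p = 0.000897). Mal-A3 changed by −5.59 ± 0.38 in 95Cb (adjusted p = 0.000342) but only by −1.57 ± 0.23 in 95Cc (adjusted p = 0.0109), and Mal-A4 by −5.19 ± 0.26 in 95Cb (adjusted p = 0.000180). Amy-d, one of a pair of near-identical amylase genes whose reads may be shared or discarded, was called in 95Cb alone (−5.00 ± 1.08, adjusted p = 0.0333). Mal-A5, Mal-B1, Mal-B2 and Amy-p were not called in any strain.

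Amyrel, an amylase-related gene picked out after its values were seen, had its lowest levels in the same strains as tobi, with log2 fold changes of −3.55 ± 0.23 in 95Ca and −3.49 ± 0.18 in 95Cb, and −2.44 to −2.21 in the 3 others. Other genes of the list were ordered differently: Mal-A3, for example, had 45.1 to 53.4 CPM in 95Cc and 9.84 CPM or less in every library of the 4 other strains. In WT replicate 2, where the midgut marker sum was lowest, Mal-A1 (228 CPM), Mal-A4 (166 CPM) and Amyrel (423 CPM) were, like tobi, at their highest of the 3 WT libraries. Mal-A3 was at its lowest there (121 CPM against 159 and 166 CPM), and Amy-d had 45.0 CPM against 712 and 735 CPM in WT replicates 1 and 3. The part of the midgut markers in these decreases was not tested.

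Several of these calls were lost in settings where fewer genes were called in total. In 21D the calls of Mal-A1, Mal-A3, Mal-A4 and Amyrel were lost without 21D replicate 1 (adjusted p from 0.0641 for Mal-A1 to 0.151 for Mal-A3), and those of Mal-A3, Mal-A4 and Amyrel without any 1 of the WT libraries (adjusted p from 0.0557 for Amyrel to 0.107 for Mal-A3). The Amyrel call in 21D was also lost without 21D replicate 3 (adjusted p = 0.0598). Over all genes, 0 of 12694 were called without 21D replicate 1 and 42 without 21D replicate 3, in place of 126. Without WT replicates 1, 2 and 3 the totals were 22, 27 and 24. The log2 fold changes without 21D replicate 1 ran from −4.34 for Mal-A3 to −2.24 for Amyrel. In 95Cc the Mal-A3 call was lost without 95Cc replicate 1 (adjusted p = 0.0672), without 95Cc replicate 2 (0.0648) and in 1 fit of 18 libraries (0.0719). The Amy-d call was lost without WT replicate 1 or 3 or any 1 of the 95Cb libraries (adjusted p from 0.0820 to 0.115).

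**Figure D4:**
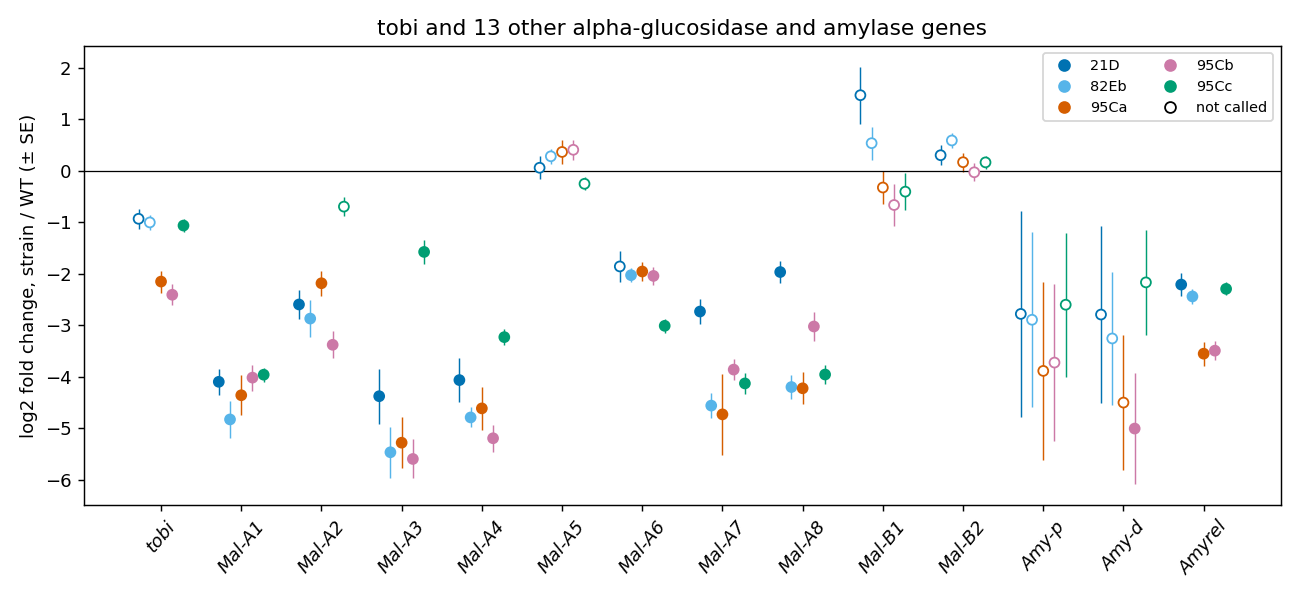
Log2 fold change against the WT (± 1 SE) of tobi and the 13 other α-glucosidase and amylase genes in the 5 deletion strains, with filled points for calls and open points for differences that were not called. Mal-A3 reaches −5.59 in 95Cb, and Mal-A5, Mal-B1, Mal-B2 and Amy-p have open points only.

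Enzymes of sugar use and fatty acid synthesis, many of them known targets of the Mondo dimer, held 0 DEGs among 19 tested genes in 21D, 82Eb, 95Ca and 95Cb. In 95Cc 2 of the 19 were DEGs, both higher: Gpdh1, the cytosolic glycerol-3-phosphate dehydrogenase, at 1.52 ± 0.27 (adjusted p = 0.0207), and Pfk, phosphofructokinase, at 1.11 ± 0.21 (adjusted p = 0.0269). Over all genes tested, 4.8% were DEGs in 95Cc. Muscle markers rose in the same strain: 3 of 5 were DEGs, and their summed level was 40110 to 48676 CPM in 95Cc against 14841 to 21415 CPM in the WT. Their part in the change of Gpdh1 and Pfk was not tested. The call of Gpdh1 held without WT replicate 2 and was lost without any 1 of the 5 other libraries (adjusted p from 0.0527 to 0.0849). The call of Pfk held without WT replicate 1 and was lost without any 1 of the 5 others, where its log2 fold change was 0.91 to 1.17.

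daw, the activin-like ligand Dawdle that carries the sugar signal from the fat body to the gut, was not called in any strain, although its levels lay on either side of the WT. The WT was narrow, at 71.6, 71.0 and 78.4 CPM. The 82Eb (107, 88.1 and 105 CPM) and 95Cb (146, 91.3 and 116 CPM) strains lay wholly above it and 95Cc (58.5, 51.6 and 55.5 CPM) wholly below it. 21D (65.3, 46.4 and 79.1 CPM) and 95Ca (74.3, 109 and 85.8 CPM) overlapped it. The log2 fold change was 0.60 ± 0.20 in 95Cb (adjusted p = 0.115), 0.48 ± 0.22 in 82Eb (adjusted p = 0.317), 0.37 ± 0.27 in 95Ca, −0.12 ± 0.31 in 21D and −0.40 ± 0.16 in 95Cc (adjusted p = 0.210), and none was called. The genes most like daw were CG5003 (rho 0.98), Sply, which encodes sphingosine-1-phosphate lyase (0.98), and cpb, the β subunit of capping protein (0.98). The 7 measured genes of the activin branch around daw, with the other ligands, the receptors babo, put and wit and the Smad Smox, held 0 DEGs in every strain.

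Akh, the hormone gene, known to be transcribed in few cells of the larva, had the lowest level of the 8 per exonic length. It had 40, 46 and 43 counts in the WT libraries (1.84, 3.86 and 2.56 CPM) and 5 to 79 counts in the strains. The lowest value, 0.399 CPM in 95Ca replicate 3, rested on 5 counts and had an exact 95% Poisson interval of 0.130 to 0.932 CPM for counting error only. Levels were 2.29, 1.47 and 1.19 CPM in 21D, 1.52, 2.24 and 0.982 CPM in 82Eb, 2.68, 1.53 and 0.399 CPM in 95Ca, 3.92, 2.26 and 2.41 CPM in 95Cb, and 2.47, 2.30 and 1.25 CPM in 95Cc. Every strain overlapped the WT. Log2 fold changes were −0.75 ± 0.33 in 82Eb (adjusted p = 0.289), −0.71 ± 0.55 in 95Ca, −0.63 ± 0.37 in 21D, −0.38 ± 0.31 in 95Cc and 0.03 ± 0.30 in 95Cb, and none was called. Its most similar genes, Nulp1 (rho 0.79), CG9945 (0.78) and CG3040 (0.77), were less like it than the closest genes of the 7 others were like them. Of 5 genes for peptide maturation and hormone control (amon, svr, Phm, Pal2 and Lst), 0 were DEGs in any strain.

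AkhR, the receptor gene, was lowest in 95Cb. The WT had 48.1, 80.4 and 41.6 CPM, and the 3 libraries of 95Cb, at 30.5, 29.5 and 25.1 CPM, were all below them. 82Eb had 27.2, 50.4 and 23.4 CPM and 95Ca had 51.3, 29.1 and 36.3 CPM, both overlapping the WT. 21D, at 50.1, 75.8 and 42.1 CPM, followed the WT replicate by replicate, and 95Cc was at 70.5, 64.3 and 58.9 CPM. The 95Cb libraries overlapped those of 82Eb and 95Ca but not those of 21D or 95Cc. These pairs were compared after the values were seen, and the share of all genes without overlap between strains was not computed.

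The log2 fold change of AkhR was −1.02 ± 0.20 in 95Cb (2.03-fold lower, adjusted p = 0.0233), −0.72 ± 0.26 in 82Eb (adjusted p = 0.209), −0.46 ± 0.22 in 95Ca, 0.06 ± 0.24 in 21D and 0.25 ± 0.16 in 95Cc. The call in 95Cb was made at the edge of the fold threshold and was lost under each of the 14 alternatives. Log2 fold changes there ran from −1.10 to −0.82 and adjusted p from 0.00411 to 0.164. In 7 of the 14 the adjusted p stayed below 0.05 and only the fold threshold was missed. Without WT replicate 2 the log2 fold change was −0.83 (adjusted p = 0.0163), and without WT replicate 3 it was −1.10 (adjusted p = 0.0536). Leaving out WT replicate 1 or any 1 of the 95Cb libraries gave −1.06 to −0.93 (adjusted p from 0.0729 to 0.164). Among the strains alone, the F test of AkhR passed in all alternatives but 1, the scaling by library totals (adjusted p = 0.0636). The fat body markers, given above with tobi, overlapped between 95Cb and the WT. The genes most like AkhR were CG31792 (rho 0.96), CG34043 (0.96) and the cytochrome P450 gene Cyp4p3 (0.96). All of them were DEGs with lower levels in 95Cb, at −1.50 ± 0.25, −1.52 ± 0.35 and −1.85 ± 0.22. CG34043 (−1.66 ± 0.34) and Cyp4p3 (−1.48 ± 0.28) were DEGs in 82Eb as well. They were picked for following AkhR over these same libraries, so their decreases are no separate evidence for its call.

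Downstream of the receptor, 1 call was made, but these lists were too short to show fewer calls than among all genes. The share of DEGs among all genes tested was 4.8% in 95Cc and lay between 1.01% and 7.39% in the other strains. Of 17 genes for AKH receptor signalling, with the G protein subunits, the store-operated calcium genes Stim and Orai and the protein kinase A subunits, 1 was a DEG in 1 strain: SERCA, the calcium pump of the endoplasmic reticulum, was higher in 95Cc (1.07 ± 0.24, adjusted p = 0.0431), the strain with the higher muscle markers, and its call was lost without any 1 of the 6 libraries, at 0.87 to 1.19. The part of the muscle markers in the change of SERCA was not tested. Of 12 genes of energy stores, including the lipases bmm and Hsl and the perilipins Lsd-1 and Lsd-2, 0 were DEGs in any strain, with median log2 fold changes between −0.31 in 95Cb and 0.19 in 95Cc. Of the 15 insulin-like peptide and insulin signalling genes, 11 were tested and 0 were DEGs.

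Seen by library rather than by test, 2 of the 8 genes did not overlap the WT in 21D (bigmax and tobi), against 13.8% of the genes tested. In 82Eb it was 3 of 8 (bigmax, tobi and daw; background 20.6%), in 95Ca 1 of 8 (tobi; 19.1%), in 95Cb 3 of 8 (tobi, daw and AkhR; 30.7%) and in 95Cc 3 of 8 (bigmax, tobi and daw; 24.5%). With 3 libraries against 3, only tobi did so in all 5 strains. Between the members, Spearman's rho of log2 CPM over the 18 libraries ran from −0.88 between daw and AkhR to 0.75 between bigmax and daw; these are descriptions over libraries that share strains and outlying replicates. In 95Cb, where daw was highest of the 6 groups by mean (118 ± 27.3 CPM), AkhR was lowest (28.4 ± 2.89 CPM), and in 95Cc, where daw was lowest (55.2 ± 3.49 CPM), AkhR was highest (64.6 ± 5.80 CPM).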

How the data were processed

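Total RNA of whole third-instar larvae was sequenced by the authors, who trimmed the reads with Trimmomatic (0.39 in the submitters' processing notes, which also list cutadapt 1.15), aligned the reads to dm6 using HISAT2 and ran featureCounts per gene. The deposited values are raw counts per gene, with the exonic length of each gene. How featureCounts treated strand and multi-mapping reads, and the annotation release, are not given in the sources used here. All 18 columns of counts were used, and 17479 of the 17562 genes had a symbol. A count of 0 allows up to 3 counts, 0.252 CPM in the shallowest library.

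The 8 genes and the gene lists were chosen with earlier results of these data known. Of 131 list entries, 129 were matched by symbol or synonym. The genes named from each list were those called in at least 1 strain, at most 4 by largest change, and the 3 genes most similar to each of the 8 were added.

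Each strain was compared with the WT (3 against 3) in edgeR 4.0.16 under R 4.3.3: TMM factors were computed after filterByExpr (minimum count 10, minimum total 15), and glmQLFTest followed glmQLFit. Standard errors were computed as the size of the log2 fold change over the square root of F. CPM values are counts over library totals. Likeness used log2 CPM with a prior count of 2. Alternatives were DESeq2 1.42.0, RLE factors, library totals, no filter, a replicate block, replicates 1 and 3 alone, outlying libraries left out, 1 fit of 18 libraries, and each library left out in turn. In 21D and 82Eb the fit of replicates 1 and 3 alone and the fit with outlying libraries left out are the same fit. No source says that replicates came from separate cultures, so p-values measure only the spread between these samples. The test was checked on simulated counts: most planted changes were recovered in 82Eb, 95Ca, 95Cb, 95Cc and among the strains, and none in 21D. No pair of libraries in a group agreed within sampling noise. Replicate numbers paired the WT with 21D (correlations of the deviations from group means 0.65, 0.84 and 0.69) and 82Eb (0.65, 0.84 and 0.65), which rests on this check alone, and an outlying replicate 2 in each group would give the same.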

Additional observations from a re-analysis of the deposited data

Results flagged for a closer look

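The levels of tobi and AkhR differed among the 5 deletion strains when these were compared with each other over their 15 libraries, without the WT. For tobi the F test of equal levels in the 5 strains gave an adjusted p of 0.000175. The 6 libraries of 95Ca and 95Cb had 19.9 to 30.6 CPM and the 9 libraries of 21D, 82Eb and 95Cc 50.8 to 68.9 CPM. That grouping was made after the values were seen, and the F test did not test it. For AkhR the F test gave an adjusted p of 0.00675, with group means from 28.4 CPM in 95Cb to 64.6 CPM in 95Cc.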

How the results depend on the processing

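Of 560 log2 fold changes of the 8 genes under the alternatives, 504 kept their direction and their side of the threshold, 20 lost a call, 9 gained one and 27 changed sign, none of these called. Of 336 for the other named genes, 289 were kept, 47 lost a call and 0 changed sign. Where no cause is given, it was not tested.

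The number of the 8 genes called in 21D was 1 in place of 0 with the replicate block and with the outlying libraries left out, and 0 without any single library. Over all genes 460 and 485 were called in these settings in place of 126. Leaving out the outlying libraries is the same fit as replicates 1 and 3 alone in 21D and 82Eb. In 82Eb the number of the 8 genes called was 1 with the outlying libraries left out and in 1 fit of 18 libraries (1254 and 714 of all genes in place of 563), and 0 to 1 without single libraries. In 95Ca it was 2 over replicates 1 and 3 (403 of all genes in place of 343). In 95Cb it was 1 in place of 2 with DESeq2, RLE factors, library totals, no filter, the replicate block, replicates 1 and 3, the outlying libraries left out, 1 fit of 18 libraries and each single library left out, where 342 to 1178 of all genes were called in place of 924. In 95Cc it was 0 in place of 1 with the replicate block, over replicates 1 and 3 and with the outlying libraries left out (245, 675 and 863 of all genes in place of 598), and 0 to 1 without single libraries. Where the block was fitted in 95Ca, 95Cb and 95Cc, the samples share only a number. In 21D and 82Eb the block changed no call of the 8 genes other than that of sug in 21D. Among the strains, 4 genes in place of 2 passed with the outlying libraries left out, where 3524 of 12859 genes passed in place of 1779 of 12963, and 2 to 3 without single libraries. The F test of daw passed in that setting (adjusted p = 0.0212), with the DESeq2 likelihood ratio test (0.0230), with library totals (0.0213), over replicates 1 and 3 (0.0173) and without 21D replicate 3 (0.0346).

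Of the 27 values that changed sign, those of daw in 95Ca (0.37 with all 6 libraries) and sug in 95Cb (−0.36) had the largest starting values. With library totals AkhR in 21D was at −0.017, cbt in 95Ca at −0.063 and bigmax in 95Cb at 0.0090; with RLE factors bigmax in 95Cb was at 0.00028. With the replicate block cbt in 95Ca was at −0.0057. In 1 fit of 18 libraries cbt in 95Ca was at −0.0016. With the outlying libraries left out cbt in 95Ca was at −0.12 and Akh in 95Cb at −0.0064. Over replicates 1 and 3 daw in 95Ca was at −0.021, Mondo in 95Cb at 0.10, Mondo in 95Cc at 0.055 and cbt in 95Cc at 0.00052. Without single libraries the lowest and highest values were −0.15 and 0.26 for Mondo in 21D, −0.42 and 0.12 for daw in 21D, −0.11 and 0.24 for AkhR in 21D, −0.23 and 0.0015 for Mondo in 95Ca, −0.13 and 0.086 for cbt in 95Ca, −0.20 and 0.040 for Mondo in 95Cb, −0.16 and 0.10 for bigmax in 95Cb, −0.81 and 0.020 for sug in 95Cb and −0.18 and 0.21 for Akh in 95Cb.

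Groups of 3 libraries and 1 line per strain limit these comparisons. Akh had 5 to 79 counts a library, and sug was lowest by far in 1 library each of the WT, 21D and 82Eb. DESeq2 called tobi in the same 3 strains as edgeR.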
